A study of Mus musculus with 6 samples.

Results

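The genes described here are 10 transcription regulators that act while male germ cells pass from pachytene, the long middle stage of meiotic prophase, to the haploid round and elongating spermatids: Crem, Fhl5, Tbpl1, Taf7l, Rfx2, Mybl1, Tcfl5, Ovol1, Sox30 and Brdt. They were chosen by name, and every probe set annotated to 1 of these symbols alone was taken, which gave 21 of the 45037 non-control probe sets on the array. All 10 genes had at least 1 probe set, and no further probe set listed a member together with other genes. The samples were 3 of testis from Nxf2 knockout (KO) mice and 3 from wild-type (WT) mice collected on postnatal day 21, with 1 Affymetrix array per sample. Testis weights were alike between the genotypes at that age, per the study's design text. Nxf2 is an X-linked relative of the nuclear mRNA export receptor gene Nxf1. The labels give no strain, no description of the deleted allele and no count of animals per sample. The p-values therefore reflect only how these arrays varied, which may be technical. The question put to the data was whether the regulators fall in KO testes as their late target genes do.

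Spermatogenesis runs on a transcription programme of its own. MYBL1 (A-MYB) switches on pachytene genes, among them those of the piRNA pathway, and TCFL5 and OVOL1 act in the same spermatocytes. RFX2 and SOX30 prepare the haploid phase, RFX2 by binding the X-box of ciliary and flagellar genes. In round spermatids CREM with its LIM-domain coactivator FHL5 (ACT), and the testis-enriched general factors TBPL1 (TRF2) and TAF7L, drive the genes for sperm tail and chromatin proteins, while BRDT binds acetylated histones.

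Of the 21 probe sets, 18 reached the dim limit, a mean signal of 20.5 over all arrays, and were tested. They represent 9 of the 10 genes, since the 1 probe set of Fhl5 and 2 of the 4 probe sets of Rfx2 lay below it. The check of the genotype came from the 1 probe set of Nxf2. Its signal was 116.0, 106.2 and 130.8 on the KO arrays, against 374.3, 340.4 and 385.9 on the WT arrays, a log2 change of -1.59 ± 0.0999 (SE, limma adjusted p = 0.000488). No source used here says whether this probe set lies within the deleted part of the gene. The median signal lay between 37.2 and 40.9 on the KO arrays and between 37.1 and 38.5 on the WT arrays. Spearman's rho across tested probe sets was 0.985 to 0.992 among KO arrays, 0.980 to 0.991 among WT arrays and 0.965 to 0.984 between the genotypes.

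In KO testes 3 regulators fell, each by a modest amount and each at 1 of its probe sets: Crem, Brdt and Tbpl1. No regulator rose. Their log2 changes were -0.39, -0.32 and -0.23, or falls of 14.8% to 23.7%. Beside them, the 12 marker genes of round spermatids had log2 changes of -2.39 to -0.34 with a median of -0.96, and 3 of them, Zpbp2 at -0.34, Acr at -0.36 and Zpbp at -0.41, lay within the range of the regulators. Of the 12, Actl7a, Spaca3 (at -2.39), Tssk2 and Catsper3 were above the dim limit through the WT arrays alone, so this comparison is a description. With 1 rather than 7 added before the log the median was -1.05, and with the median of all values added it was -0.68. In whole testes, fewer cells of a type and less RNA per cell cannot be told apart. Counted over probe sets, 3 of 18 fell and 0 rose (limma, adjusted p by Benjamini-Hochberg below 0.05). Of the 27022 probe sets tested, 5.23% fell, 2.26% rose and 7.49% were called in either direction. Of all calls 69.9% were falls, against 84.8% when each array was centred on its median, 47.7% with array weights and 51.7% with a replicate block. At an unadjusted p under 0.05, 7 of the 18 were lower and 0 higher, against 3501 lower and 4199 higher of the 27022. The 3 KO values lay all below the 3 WT values in 9 of the 18 and all above in 0, against 14.8% below, 19.1% above and 33.9% in either order over all tested probe sets. Of the 9, 1 probe set of Rfx2 (1433415_at) was above the dim limit through the WT arrays alone, so its order is given as a description. The median log2 change was -0.24 over the 18 and 0.04 over all tested probe sets. The count of falls depended on single arrays: leaving out KO replicate 1 gave the same 3 genes, KO replicate 2 gave Crem, Rfx2 and Sox30 in their place, KO replicate 3 or WT replicate 3 gave 1, and WT replicate 1 or 2 gave 0.

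For orientation, the 250 bases before the RefSeq transcription start (build GRCm38.p6) are shown for 4 regulators: Tbpl1 and Brdt, which fell in KO testes, Rfx2, whose lower mean did not pass, and Tcfl5, whose groups overlapped. Of the 10 genes, 7 have an entry in the RefSeq promoter table. Capitals mark matches on either strand to 4 short motifs: TGACG (the core of the cAMP response element that CREM binds), TAACNG (a MYB site), GTTGCC (an arm of the X-box that RFX proteins bind) and CACGTG (an E-box, the element of basic helix-loop-helix proteins). The windows lie at chr10:22731448-22731697 on the minus strand, chr5:107330944-107331193 on the plus strand, chr17:56831009-56831258 on the minus strand and chr2:180642692-180642941 on the minus strand, and each is written 5′ to 3′ toward its gene.
Tbpl1: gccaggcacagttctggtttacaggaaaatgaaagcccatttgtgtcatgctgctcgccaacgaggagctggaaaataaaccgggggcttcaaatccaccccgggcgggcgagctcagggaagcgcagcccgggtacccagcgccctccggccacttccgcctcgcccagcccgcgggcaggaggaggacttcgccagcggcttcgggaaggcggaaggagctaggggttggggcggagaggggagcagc
Brdt: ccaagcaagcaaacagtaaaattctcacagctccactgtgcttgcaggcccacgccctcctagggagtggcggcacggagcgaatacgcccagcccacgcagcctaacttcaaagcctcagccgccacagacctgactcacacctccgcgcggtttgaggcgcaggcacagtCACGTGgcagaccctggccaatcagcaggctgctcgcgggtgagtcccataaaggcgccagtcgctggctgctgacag
Rfx2: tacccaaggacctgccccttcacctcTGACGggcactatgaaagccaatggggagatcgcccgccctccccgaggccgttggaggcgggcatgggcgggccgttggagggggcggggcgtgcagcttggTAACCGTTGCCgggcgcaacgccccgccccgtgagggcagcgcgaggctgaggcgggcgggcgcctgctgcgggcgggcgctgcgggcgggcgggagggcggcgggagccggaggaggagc
Tcfl5: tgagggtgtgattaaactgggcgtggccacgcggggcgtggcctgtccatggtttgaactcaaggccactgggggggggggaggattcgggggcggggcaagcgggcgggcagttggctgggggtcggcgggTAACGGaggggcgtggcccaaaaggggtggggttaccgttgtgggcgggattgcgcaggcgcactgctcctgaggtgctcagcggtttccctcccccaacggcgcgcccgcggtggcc

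The Rfx2 window held 3 matches: TGACG beginning 224 bases upstream, and a MYB site 121 bases upstream that shares 1 base with an X-box arm 116 bases upstream. Tcfl5 had a MYB site 118 bases upstream and Brdt an E-box 78 bases upstream. The Tbpl1 window had no match, which says only that these letters are not in it. Among all 32851 windows of the same length in the table, TAACNG occurred in 19.8%, TGACG in 17.8%, GTTGCC in 10.4% and CACGTG in 6.02%. Of the 8 windows of the 7 regulators, 4 held TAACNG (those of Rfx2, Tcfl5, Sox30 and 1 of the 2 of Fhl5), 2 held CACGTG (Brdt and Taf7l) and 1 each held TGACG and GTTGCC (Rfx2). These matches are descriptions of the letters and mark no tested binding site.

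**Figure D1:**
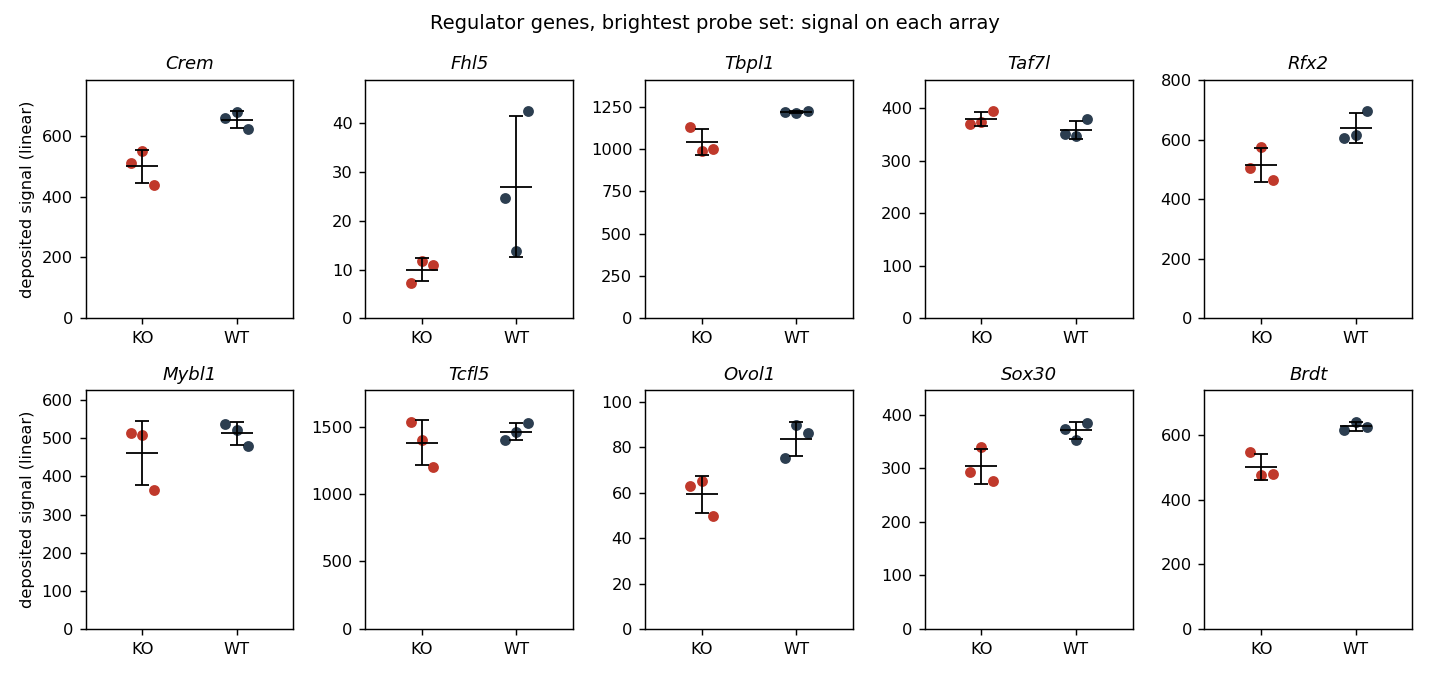
Deposited signal (linear scale, y axis from 0) of the brightest probe set of each of the 10 regulators in KO and WT testes. Points are arrays, and bars show the mean ± SD (n = 3 each). The KO points lie below all WT points for Crem, Fhl5, Tbpl1, Rfx2, Ovol1, Sox30 and Brdt, and overlap them for Taf7l, Mybl1 and Tcfl5.

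Among the factors of the haploid programme, Crem encodes a cAMP-responsive transcription factor whose activator isoforms are abundant in spermatids. Its brightest probe set (1430847_a_at) had signals of 509.8, 548.2 and 438.3 on the KO arrays, against 658.8, 678.6 and 622.2 on the WT arrays. Every KO array lay below every WT array, with KO replicate 3 the lowest. The mean was 498.8 ± 55.8 in KO and 653.2 ± 28.6 in WT (SD, n = 3 each), a log2 change of -0.39 ± 0.0823 (SE, limma adjusted p = 0.0234), or 23.7% lower. The other 3 Crem probe sets did not pass and overlapped between the groups. Their log2 changes were -0.07 (95% interval -0.26 to 0.11), 0.11 (-0.24 to 0.46) and -0.04 (-0.42 to 0.34), at mean signals over all arrays of 222.3, 94.6 and 23.2. Crem makes activators and repressors by alternative splicing and promoters, and no source used here says which of them each probe set detects. The call of the brightest probe set was lost without WT replicate 1 (adjusted p = 0.104) and without WT replicate 2 (adjusted p = 0.064). It was also lost with no dim filter (0.0563) and when the limma fit had no intensity trend (0.0802).

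Fhl5, the coactivator of CREM, was measured near the bottom of the signal range. It had signals of 7.28, 11.7 and 11 on the KO arrays, against 24.6, 13.8 and 42.6 on the WT arrays. The groups did not overlap, but WT replicate 2 lay close to the KO arrays. With a mean of 18.5 over all arrays Fhl5 missed the dim limit and was not tested with the rest. When no probe set was left out as dim, its log2 change was -0.92 ± 0.294 (SE, limma adjusted p = 0.137), which did not pass.

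Tbpl1, which encodes a TBP-like initiation factor needed for spermatids to develop, was lower by a small margin. Its brighter probe set (1431415_a_at) read 1130.3, 989.2 and 1002.5 on the KO arrays, against 1219.4, 1214.7 and 1226.6 on the WT arrays. The WT arrays were nearly identical and all KO arrays lay below them. The mean was 1040.6 ± 77.9 in KO and 1220.2 ± 5.99 in WT (SD, n = 3 each), 14.8% lower in KO (log2 change -0.23 ± 0.0549 SE, limma adjusted p = 0.0343). The other Tbpl1 probe set had a log2 change of -0.08 (95% interval -0.29 to 0.13) and overlapping groups. The call was lost when each array was centred on its median (adjusted p = 0.0735), with no dim filter (0.077) and with no intensity trend (0.129). It was also lost when any array but KO replicate 1 was left out. Leaving out KO replicate 2 or 3 gave adjusted p-values of 0.0901 and 0.0913, and leaving out WT replicate 1, 2 or 3 gave 0.128, 0.0715 and 0.077.

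Taf7l, an X-linked testis relative of the TFIID subunit gene Taf7, was 1 of 2 tested probe sets with a higher mean in KO, beside 1 of Crem (1449037_at). Its signals were 369.6, 373.6 and 395.2 on the KO arrays, against 351.3, 347.3 and 379.3 on the WT arrays. The groups overlapped, and the log2 change of 0.08 (95% interval -0.08 to 0.23) did not pass (limma adjusted p = 0.492).

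Brdt, the testis member of the BET family of acetyl-histone readers, had the lowest p of all regulator probe sets. Its brightest probe set (1435502_a_at) had signals of 546.4, 475.8 and 478.4 on the KO arrays, against 613.6, 641.2 and 625.0 on the WT arrays. All KO arrays lay below all WT arrays. The mean was 500.2 ± 40 in KO and 626.6 ± 13.9 in WT (SD, n = 3 each), 20.1% lower in KO (log2 change -0.32 ± 0.0678 SE, limma adjusted p = 0.0228). The other Brdt probe sets had log2 changes of -0.12 (95% interval -0.29 to 0.04) and -0.30 (-0.59 to -0.01), and neither passed after adjustment. The KO arrays also lay below the WT arrays at the brighter of these, with 377.0, 343.5 and 327.4 in KO against 379.0, 377.7 and 385.7 in WT. The call of the brightest probe set held without KO replicate 1 (adjusted p = 0.0193) and was lost without any other, and with no intensity trend (0.078). Leaving out KO replicate 2 or 3 gave adjusted p-values of 0.0636 and 0.0537, and leaving out WT replicate 1, 2 or 3 gave 0.0947, 0.0621 and 0.055.

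Sox30, an HMG-box factor that switches on haploid genes, had signals of 293.1, 340.2 and 276.4 on the KO arrays, against 374.1, 352.2 and 384.9 on the WT arrays. The groups did not overlap, but KO replicate 2 and WT replicate 2 lay close together. The log2 change was -0.29 ± 0.0887 (SE, 95% interval -0.48 to -0.09), with a limma adjusted p of 0.0746 that missed the threshold. Without KO replicate 2 the adjusted p was 0.0476.

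Rfx2, the X-box factor of ciliary genes, whose promoter window held the X-box arm, was lower in KO without passing the test. Its bright probe set (1417332_at) read 505.2, 577.4 and 463.3 on the KO arrays, against 606.3, 617.7 and 697.6 on the WT arrays. All KO arrays lay below all WT arrays, with KO replicate 2 nearest to them. The mean was 515.3 ± 57.7 in KO and 640.5 ± 49.8 in WT (SD, n = 3 each), and the log2 change of -0.31 ± 0.0873 (SE, limma adjusted p = 0.057) missed the threshold. Without KO replicate 2 it was -0.40 (adjusted p = 0.0379). The other 3 Rfx2 probe sets lay at mean signals of 20.6, 20.1 and 10.9, near or below the dim limit, and the 1 tested among them had a log2 change of -0.28 (adjusted p = 0.277). That probe set (1433415_at) was above the limit through the WT arrays alone, at means of 17.8 in KO and 23.4 in WT.

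None of the 5 probe sets of Ovol1, Mybl1 and Tcfl5, regulators of pachytene spermatocytes, passed the test. At an unadjusted p under 0.05 (limma) 1 of the 5 was lower and 0 higher, against 3501 lower and 4199 higher of all 27022 tested. Ovol1, a zinc finger repressor needed for progress through pachytene, was read by 2 probe sets, the brighter of which (1419052_at) had signals of 62.8, 65.3 and 50 on the KO arrays, against 75.4, 89.9 and 86.2 on the WT arrays. The groups did not overlap. The log2 change of -0.46 ± 0.136 (SE, 95% interval -0.76 to -0.15) was the deepest of the 18 tested, with a limma adjusted p of 0.0682. The other Ovol1 probe set also had all KO arrays below the WT arrays, at 52.9, 53.5 and 41.9 in KO against 75.9, 55.0 and 58.9 in WT (log2 change -0.31, adjusted p = 0.211).

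Mybl1, the pachytene master regulator, overlapped between the groups at both of its probe sets. The brighter (1456951_at) read 513.6, 508.3 and 365.3 on the KO arrays, against 538.6, 522.2 and 479.0 on the WT arrays. KO replicates 1 and 2 lay within the WT range, and KO replicate 3 lay apart below it. Its log2 change was -0.16 (95% interval -0.43 to 0.10, limma adjusted p = 0.39), and -0.24 (-0.60 to 0.12, adjusted p = 0.355) at the other probe set. Tcfl5, a helix-loop-helix factor of spermatocytes, had signals of 1537.3, 1402.9 and 1202.6 on the KO arrays, against 1397.0, 1461.9 and 1527.2 on the WT arrays. Here KO replicate 1 was the highest of all 6 arrays and KO replicate 3 the lowest. The log2 change of -0.09 (95% interval -0.26 to 0.08) did not pass (limma adjusted p = 0.478), and its sign turned without KO replicate 3 (0.01).

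**Figure D2:**
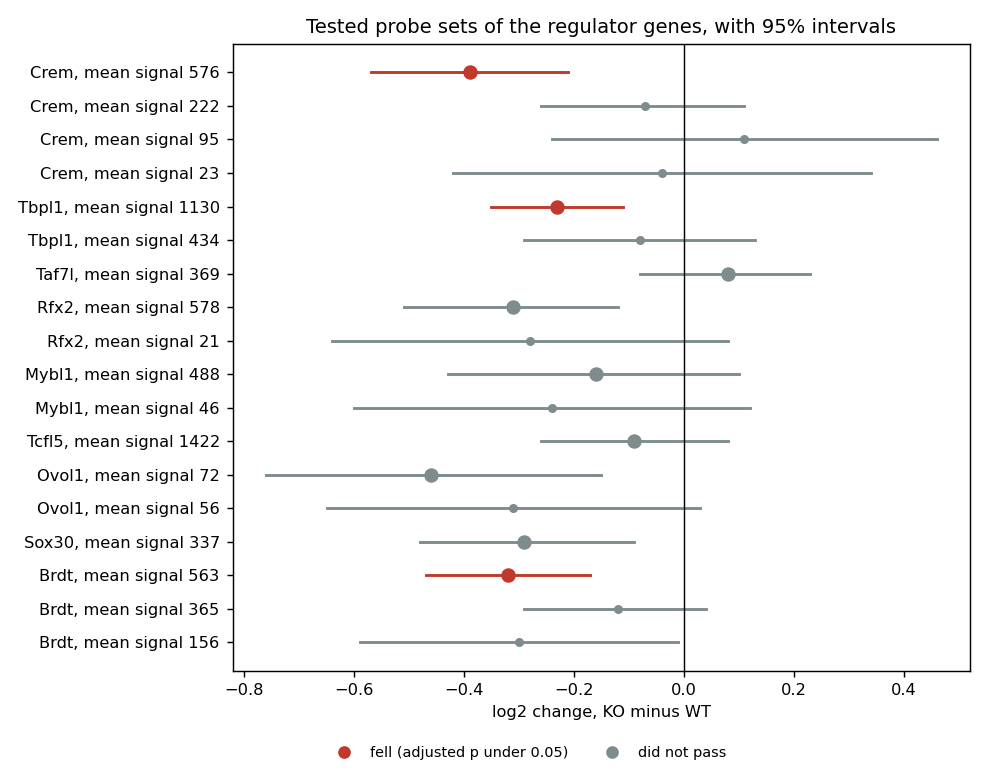
Log2 change (KO minus WT, x axis) with its 95% interval for the 18 tested probe sets of the regulators, named by gene and mean signal over all arrays. Large points are the brightest probe set of a gene. Red marks the 3 that fell, Crem at -0.39, Tbpl1 at -0.23 and Brdt at -0.32. The 18 points run from -0.46 (Ovol1) to 0.11 (a Crem probe set).

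Few of the late targets could be read. Of 8 genes that depend on CREM or TBPL1, 7 were tested and 2 fell. Smcp, of the sperm mitochondrial capsule, had 16.6, 18.6 and 44.4 on the KO arrays, against 236.9, 83.9 and 304.4 on the WT arrays (log2 change -2.60 ± 0.423 SE, limma adjusted p = 0.00951). Odf1, an outer dense fibre gene of the sperm tail, had 17.1, 13.4 and 34.9 in KO, against 156.9, 71.7 and 195.9 in WT (log2 change -2.33, adjusted p = 0.00685). At both genes WT replicate 2 was the lowest WT array. The protamine and transition protein genes Prm1, Tnp1 and Tnp2 lay near the dim limit in both genotypes, at means of 28.9, 17.7 and 29.2 in KO, against 28.2, 29.0 and 28.5 in WT, and Prm2 lay below it at 8.46 in KO and 11.5 in WT. The remaining members, Ace and Camk4, had log2 changes of 0.24 and 0.18 and did not pass. The median of the 7 was therefore 0.02, with 3 lower and 4 higher. Without WT replicate 1, 0 of the 7 passed.

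For SOX30, of 4 target genes 3 were above the dim limit, Hils1, Ccdc54 and Tnp1. All 3 were so through the WT arrays alone, so their differences and the list median are given as a description. Hils1, a spermatid linker histone, read 6.14, 12.6 and 28.4 on the KO arrays, against 153.7, 51.9 and 202.1 on the WT arrays. Ccdc54, a coiled-coil gene, read 0.369, 0.726 and 2.66 in KO, against 42.0, 8.67 and 69.4 in WT, with a mean over all arrays close to the limit. The log2 changes of Hils1 and Ccdc54 were -2.59 and -2.25, and these depend on the pseudocount of 7 added before the log. The median of the list was -2.25, -3.06 with a pseudocount of 1, -0.89 with a pseudocount at the median of all values and -1.36 with no dim filter. Tnp1, at means of 17.7 in KO and 29.0 in WT, did not pass, and Tsks was below the dim limit.

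The ciliary and flagellar genes, the class on which RFX2 acts, had a median log2 change of -0.31. The median was -0.29 in the regulators and -0.24 in the markers of pachytene and the meiotic divisions. All 14 listed genes were tested, all 14 had lower means, 6 fell and 0 rose. In 13 of the 14 the KO values lay all below the WT values, against 14.8% of all tested probe sets. Over the brightest probe sets of the 12971 tested genes, the like of these lists, 2371 had this order and 956 (7.37%) fell. At an unadjusted p under 0.05 (limma) 13 of the 14 were lower and 0 higher, against 3501 lower and 4199 higher of all 27022 tested. Spag16, of the axoneme's central pair, read 238.3, 224.9 and 214.5 on the KO arrays, against 394.2, 395.4 and 423.5 on the WT arrays (log2 change -0.82, adjusted p = 0.00273). Tekt2, a flagellar tektin, fell by 0.69, Dnali1, a dynein light intermediate chain, by 0.51, Rsph9, a radial spoke protein, by 0.46, Tekt1 by 0.33 and the intraflagellar transport gene Ift57 by 0.32 on the log2 scale. The count of falls was 2 without WT replicate 1 and 4 without KO replicate 3, WT replicate 2 or WT replicate 3.

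For MYBL1, the targets were mostly level. Of 7 tested, 1 fell and 0 rose, with 1 lower and 0 higher at an unadjusted p under 0.05 (limma), and the median log2 change was -0.07. The gene that fell was Ccna1, the male germ cell cyclin A1, by 0.42 on the log2 scale (adjusted p = 0.0253), with signals of 672.8, 507.7 and 591.0 in KO against 784.1, 757.2 and 815.2 in WT. The piRNA pathway genes Tdrd9 and Tdrd5 had log2 changes of -0.18 and -0.16 (adjusted p = 0.203 and 0.315), and Piwil1, Mael and Mov10l1 all had -0.06. The call of Ccna1 was lost without KO replicate 3, WT replicate 1 or WT replicate 3.

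**Figure D3:**
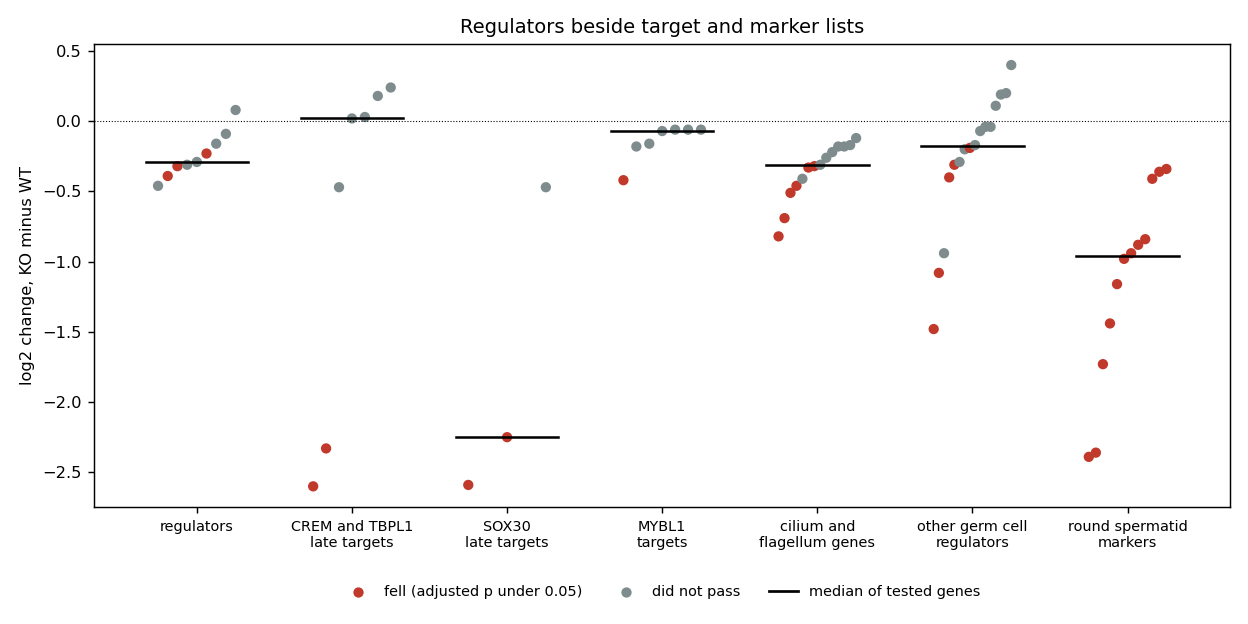
Log2 change (KO minus WT, y axis) of each tested gene, by its brightest probe set, in the regulators, 4 target lists, the other germ cell regulators and the round spermatid markers. Red points fell, grey points did not pass, and black lines are medians, at -0.29 in the regulators, 0.02 in the CREM and TBPL1 targets, -2.25 in the 3 SOX30 targets (-3.06 to -0.89 with other pseudocounts) and -0.96 in the round spermatid markers. The lowest points are Smcp at -2.60 and Hils1 at -2.59. The 3 SOX30 targets, and Actl7a, Spaca3, Tssk2 and Catsper3 of the round spermatid markers, were above the dim limit through the WT arrays alone.

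Beyond the 10 genes, of 16 tested genes listed as other germ cell regulators, which include the kinesin Kif17 as a partner of FHL5, 5 fell and 0 rose, with a median log2 change of -0.18, and at an unadjusted p under 0.05, 8 were lower and 1 higher (limma). Spz1, a spermatogenic helix-loop-helix zipper gene, had 42.7, 34.6 and 53.8 on the KO arrays, against 158.7, 84.9 and 174.0 on the WT arrays (log2 change -1.48 ± 0.242 SE, adjusted p = 0.00954). Creb3l4, a bZIP factor of spermatids, had 47.5, 49.2 and 71.1 in KO, against 133.9, 92.8 and 154.1 in WT (log2 change -1.08, adjusted p = 0.0141). Gtf2a1l (ALF), the germ cell TFIIA subunit, fell by 0.40 and Nr6a1 (GCNF), an orphan nuclear receptor gene of round spermatids, by 0.31 on the log2 scale. The last of the 5, Zfp35, a zinc finger gene, fell by 0.19. Kif17, whose product moves FHL5 out of the spermatid nucleus, had a log2 change of -0.94 that did not pass (adjusted p = 0.0645). The count was 0 without WT replicate 1 and 3 without KO replicate 2, KO replicate 3 or WT replicate 3.

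Among widely expressed relatives of the regulators, of 14 tested, 1 fell and 0 rose, with 3 lower and 3 higher at an unadjusted p under 0.05 (limma), and the median log2 change was -0.05. The gene that fell was Ovol2, the paralogue of Ovol1, with 188.1, 198.8 and 169.9 on the KO arrays, against 234.3, 259.4 and 275.5 on the WT arrays (log2 change -0.45, adjusted p = 0.0245). Taf1, Tbp and Brd2 had log2 changes of 0.26, -0.20 and -0.22, and none of these passed (adjusted p = 0.0683, 0.106 and 0.121). The call of Ovol2 held without KO replicate 2 and was lost without any other array.

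The regulators were then set beside markers of the germ cell stages, array by array. Among 10 genes of meiotic prophase 0 passed, with 2 lower and 0 higher at an unadjusted p under 0.05 (limma), and a median log2 change of -0.05. Of 9 tested genes of pachytene and the meiotic divisions 5 fell (median -0.24). Of 12 genes of round spermatids 12 fell (median -0.96), 4 of which (Actl7a, Spaca3, Tssk2 and Catsper3) were above the dim limit through the WT arrays alone. Of 12 tested genes of elongating spermatids 7 fell (median -1.35). Prm1, Prm2 and Tnp2 of this list lay near or below the dim limit in WT too, at WT means of 28.2, 11.5 and 28.5. Whether elongating spermatids were present in either genotype was not tested. Among the 7 that fell, Akap4, Capza3 and Hils1 were also above the limit through the WT arrays alone, with KO means of 5.43, 6.41 and 15.7. So were Tnp1 and Gapdhs of this list, which did not pass, with KO means of 17.7 and 20. Falls of genes above the limit through the WT arrays alone are given as a description. Pgk2, a testis glycolysis gene of the pachytene list, had a log2 change of -0.56 (adjusted p = 0.0033), and the acrosomal gene Acrv1 and the actin-like gene Actl7b of the round spermatid list had log2 changes of -2.36 and -0.84 (adjusted p = 0.00884 and 0.0033). The 9 tested regulators, by their brightest probe sets, had a median of -0.29. The pachytene count was 1 without WT replicate 1, 2 without WT replicate 2 or 3 and 3 without KO replicate 3, and the elongating spermatid count was 0 without WT replicate 1. The round spermatid count was 1 without WT replicate 1, 6 without WT replicate 3, and 8 without KO replicate 1 or 2.

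The arrays did not follow the same order in these lists. Measured from the WT mean of each gene, the regulators' median log2 value was -0.19, -0.15 and -0.41 in KO replicates 1 to 3 and -0.03, 0.00 and 0.04 in WT replicates 1 to 3. The pachytene list was alike, at -0.20, -0.20 and -0.32 in KO and -0.03, 0.05 and -0.01 in WT. The round spermatid list was at -1.13, -1.11 and -0.79 in KO and 0.13, -0.46 and 0.33 in WT. KO replicate 3 was thus the lowest KO array for the regulators and the highest for the round spermatid genes. WT replicate 2 stood low for the round spermatid genes and level with the other WT arrays for the regulators.

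**Figure D4:**
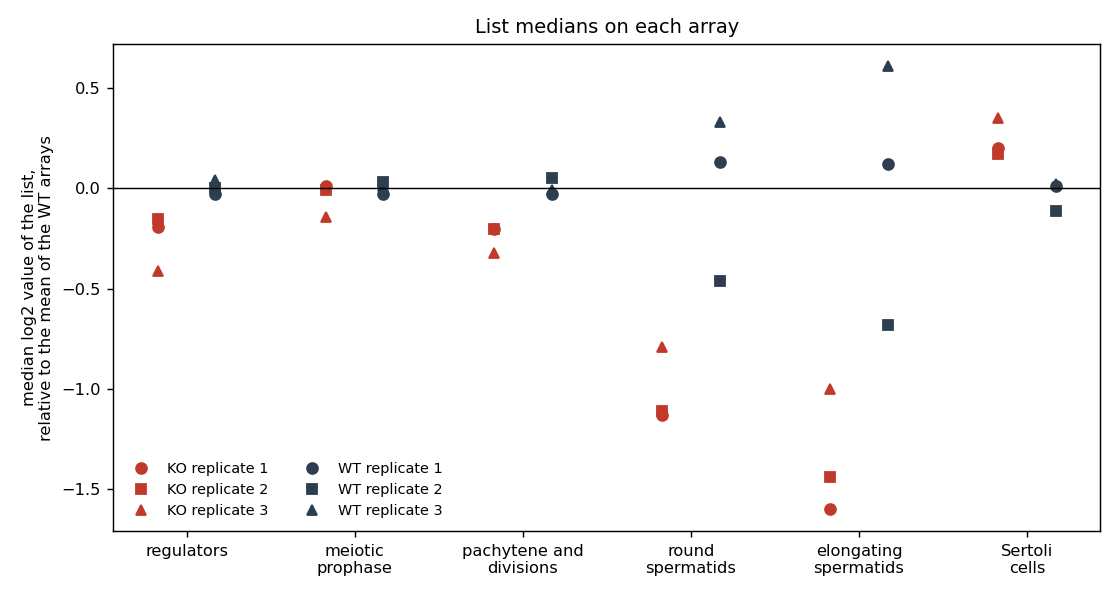
Median log2 value of 6 gene lists on each array, measured from each gene's WT mean (y axis), with KO in red and WT in dark blue. The regulators lie at -0.41 to -0.15 in KO and -0.03 to 0.04 in WT, near the pachytene list, while the round spermatid list lies at -1.13 to -0.79 in KO and spreads from -0.46 to 0.33 in WT.

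Markers of other cells mostly had higher means in KO testes, except the tested ones of the epididymis, which were lower. Of 11 Sertoli cell genes all had higher means in KO and 4 rose, with a median log2 change of 0.25 and a summed signal of 6761 to 7470 in KO against 5836 to 6304 in WT. Wt1, a Sertoli cell transcription factor gene, averaged 742.2 ± 17.3 in KO and 623.1 ± 37.2 in WT (SD, n = 3 each; log2 change 0.25, limma adjusted p = 0.0334). Of 8 macrophage genes all had higher means, 0 passed, 5 were higher and 0 lower at an unadjusted p under 0.05 (limma), and the summed signal was 2162 to 3309 in KO, highest in KO replicate 3, against 1479 to 2033 in WT. All 5 Leydig cell genes had higher means and 2 rose (median 0.58), and of 8 spermatogonial genes 4 rose and 1 fell (median 0.25). Of 5 endothelial genes 2 rose, and of 5 peritubular myoid genes 0 passed, with 0 at an unadjusted p under 0.05 (limma). All 3 tested epididymal genes fell (median -0.44), at a summed signal of 554 to 700 in KO against 787 to 816 in WT. Adam7 among them was above the dim limit through the WT arrays alone, at means of 16.7 in KO and 36.3 in WT. Most of the sum came from Aqp9, at means of 524.1 in KO and 653.2 in WT. Lcn8, below the limit and level at means of 8.58 in KO and 8.41 in WT, is in the sum but was not tested. Crisp1 had no probe set. Whether epididymal tissue was in the samples was not tested. These counts too rested on single arrays: without WT replicate 1 the Sertoli, Leydig, endothelial and epididymal counts were all 0. The part of these cells in the regulators' values was not tested.

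Brdt, the regulator with the lowest p, was used to look for genes with a like pattern over the 6 arrays. Among the 22970 tested probe sets with 1 symbol, with those of the regulators left out, the closest by Pearson correlation of log2 values were Hdac1 (r = 0.9981), Rgs10 (r = 0.9949), Dnajb5 (r = 0.9939) and Rbm46os (r = 0.9939). Rbm46os fell (limma adjusted p = 0.0336), while Hdac1, Rgs10 and Dnajb5 did not pass (0.113, 0.0936 and 0.0544). Hdac1, a histone deacetylase gene, read 748.4, 701.0 and 700.4 on the KO arrays, against 784.7, 794.3 and 789.8 on the WT arrays. These values are the highest of many over only 6 arrays that differ in genotype, and describe likeness alone.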

How the data were processed

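Signal intensities of 45101 probe sets on 6 arrays (3 KO, 3 WT) were used as the authors deposited them. Per the submitters' processing notes they were made with MAS5, with no version named. Per the deposited values the scale is linear, and the mean without the lowest and highest 2% is 150.0 on every array. Detection calls were not used, and the number of arrays limits the precision.

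After removal of 64 control probe sets, 45037 remained. Of these, 34945 have 1 gene symbol, 932 several and 9160 none in the platform annotation. Symbols were updated by Entrez identifier against RefSeq (GRCm38.p6), which held 34741 of them. A pseudocount of 7, the 25th percentile of the values, was added before log2, so changes of dim probe sets are understated. Probe sets with a mean at or above the 40th percentile (20.5) were tested, 27022 in all, with limma 3.58.1 in R 4.3.3 (lmFit, eBayes with trend, two-sided, no covariate), with calls made below an adjusted p of 0.05 (Benjamini-Hochberg). Log2 changes are KO minus WT with moderated SE and 95% intervals. The fit was tested on simulated data.

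The members, target lists and marker lists were chosen with earlier results of these data known, so counts over a list are descriptions. Named genes were Nxf2, every member, genes of lowest p in a list (2 to 4), defining genes near background and the 4 genes most like Brdt. The other genes named in a list were chosen after their values were seen. A gene in a list is represented by its brightest probe set. Replicate numbers were not used as pairs. The alternatives were quantile normalization, median centring, pseudocounts of 1 and 39, no dim filter or 1 at the 60th percentile, no trend, array weights, a replicate block, each array left out, and the mean of a gene's probe sets for list medians.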

Additional observations from a re-analysis of the deposited data

How the results depend on the processing

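Of 265 values of member probe sets under the alternatives, 228 kept their direction and their side of the threshold, 18 lost and 11 gained a call, and 8 changed sign. The 8 were all of probe sets that had not passed: with array weights Crem (1430598_at) was at 0.12, Tbpl1 (1434907_at) at 0.03 and Tcfl5 at 0.01, without KO replicate 3 they were at 0.06, 0.03 and 0.01 and Crem (1449037_at) at -0.07, and without WT replicate 2 Crem (1430598_at) was at 0.08. With single arrays left out the ranges were -0.07 to 0.21 for Crem (1449037_at) and -0.15 to 0.08 for Crem (1430598_at). The count of member probe sets that fell was 3, and 1 with no dim filter, 0 without the trend, 7 with array weights, 7 with the replicate block, and 0 to 3 with single arrays left out; it was 4 at the 60th percentile filter and 2 after median centring. None rose under any of them. Over all probe sets 1414 fell and 610 rose. These were 1382 and 247 after median centring, 817 and 188 with no dim filter, 569 and 174 without the trend, 3446 and 3771 with array weights, 2330 and 2173 with the replicate block, and 143 to 1146 and 16 to 388 with single arrays left out. The sparsest case was without WT replicate 1. Deviations from the group means of same-numbered KO and WT arrays correlated at 0.0793, 0.457 and 0.266 for replicates 1 to 3. For KO and WT arrays of different numbers the correlations ran from -0.334 to 0.112. Although the study speaks of pairs of testes, no label ties them to these numbers, so the numbers were not taken as pairs. The median of the CREM and TBPL1 targets was -2.33 with the filter at the 60th percentile, where fewer of its genes were tested. The endothelial list gave no value there. The median of the myoid list was -0.17 with array weights and -0.14 without WT replicate 2. The median of the SOX30 targets, -2.25, was -3.06 with a pseudocount of 1, -0.89 with 1 at the median of all values and -1.36 with no dim filter. Fhl5, Ccdc54 and the protamine genes lie near the dim limit, which limits what their changes can show.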
